A study of Gallus gallus with 4 samples.

Results

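The 7 transcription factors described here, TP63, NFIB, SOX9, GATA3, GATA2, POU2F3 and FOXN1, were chosen by symbol from the 16878 genes listed for embryonic chicken feathers, and each symbol matched 1 entry. Their identifiers in the files, in that order, are ENSGALG00000007324, ENSGALG00000005441, ENSGALG00000004386, ENSGALG00000029270, ENSGALG00000005909, ENSGALG00000006673 and ENSGALG00000043868. They act in stratified epithelia and skin appendages. In mammalian skin TP63 is needed for the basal layer of dividing keratinocytes, and NFIB and SOX9 act in the stem cells of the hair follicle. GATA3, POU2F3 and FOXN1 are tied in mammals to cells that leave the basal layer and build the barrier or the hair, while GATA2 is best known from blood precursors and vessels. A feather grows from an epithelial tube around a collagen-rich core. Part of its epithelium sends the signal SHH, and its older cells fill with feather keratins.

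The study sampled White Leghorn embryos in 4 droplet libraries, each the only one of its group. Plucked feathers from the back were taken at 12 days of age (HH stage 38), at 13 days (HH39) and at 14 days (HH40), and a strip of back skin with its feathers in place was taken at 12 days. The 12-day tissue was Pronase-digested into whole cells, while the 13- and 14-day feathers gave nuclei. The labels give neither the number of embryos nor their sex, and no group carried a treatment or an altered gene. With 1 library per group there was no test and no replicate error, and every interval below covers counting error only. The change from day 12 to later ages is also one from cells to nuclei and from Cell Ranger 3.1.0 to 7.0.0, so levels across it are set side by side without a comparison.

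Epithelial barcodes were those with at least 3 UMIs (unique molecular identifiers, each standing for 1 captured transcript) of the epithelial genes DSP, CALML3 and KRT5 together and at most 5 of the collagen genes COL1A1 and COL1A2. They numbered 4428 of 6055 kept barcodes in plucked feathers at day 12, 2096 of 5338 in feathers in skin, 3748 of 16597 at day 13 and 1800 of 14045 at day 14. Their median depths were 10228.5, 11709, 2974 and 3642.5 UMIs in that order. The label was checked with 8 epithelial markers outside the rule, which summed to 3837 CPM in plucked feathers at day 12 and 4883 CPM in feathers in skin, against 247 and 235 CPM in collagen barcodes (10 or more collagen UMIs and none of the 3 epithelial genes). CPM is a gene's share of the summed UMIs, scaled to counts per 1e6, over genes other than globin and mitochondrial ones. The same sums were 1156 CPM at day 13 and 868 CPM at day 14, against 462 and 135 CPM in collagen nuclei, so the nuclei were less clearly separated. Globin genes took 0.158% and 0.104% of the epithelial UMIs of the cells, but 22.7% and 11.1% of those of the nuclei at days 13 and 14. Any pair of libraries shared between 20 and 176 deposited barcodes, and at most 5 epithelial ones. The W-linked gene HINTW, carried by female birds, had 157965 UMIs in the epithelium of plucked feathers at day 12 and 0 UMIs in that of feathers in skin, and the nuclei of both ages held it as well.

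TP63, the master regulator of stratified epithelia, stood at 135 CPM in plucked feathers at day 12 (95% Poisson interval 131 to 138), 180 CPM in feathers in skin (174 to 186), 650 CPM at day 13 (635 to 665) and 434 CPM at day 14 (419 to 450). Within both preparations the intervals of the libraries were apart. After each barcode was thinned to 1000 UMIs, to put depths on one footing, 12.2%, 14.7%, 31.6% and 25.5% of epithelial barcodes had a TP63 UMI in the same order. Collagen barcodes held 61.8, 6.56, 310 and 52.0 CPM, below the epithelium in every library, with 39 UMIs behind the value at day 13.

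NFIB, a nuclear factor I protein, was not restricted to the epithelium. Its epithelial level was 80.03 CPM in plucked feathers at day 12 (77.4 to 82.7), 233 CPM in feathers in skin (227 to 240), 330 CPM at day 13 (319 to 340) and 175 CPM at day 14 (165 to 185). Collagen barcodes held more in each library, at 122, 432, 684 and 655 CPM, whereas globin barcodes (over 50% globin UMIs) of the nuclei held 88.2 and 41.6 CPM. Globin barcodes were not kept apart from epithelial ones, so some nuclei belonged to both groups. The thinned epithelial shares were 7.33%, 16.0%, 15.6% and 9.31%, against 11.2%, 29.2%, 48.9% and 43.0% of collagen barcodes.

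SOX9, a factor of cartilage and of hair follicle stem cells in mammals, was confined to few epithelial barcodes. It stood at 13.9 CPM in plucked feathers at day 12 (12.8 to 15.0), 24.7 CPM in feathers in skin (22.7 to 26.85), 3.96 CPM at day 13 (2.90 to 5.28) and 5.10 CPM at day 14 (3.57 to 7.06). The nuclear values rest on 46 and 36 UMIs, and their intervals overlap. Its thinned shares were 1.48%, 2.05%, 0.352% and 0.429%, against 0.361% and 0.358% of collagen barcodes in the day 12 libraries. In plucked feathers 68 of 4428 epithelial barcodes with at least 3 UMIs of SOX9 held 42.1% of its UMIs, and in feathers in skin 61 of 2096 held 44.2%.

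GATA3, which in mouse hair follicles directs the inner root sheath, was detected broadly, in thinned shares of 40.7%, 36.5%, 53.3% and 45.3% of epithelial barcodes. The GATA3 level was 551 CPM in plucked feathers at day 12 (544 to 558), 505 CPM in feathers in skin (495 to 514), 1196 CPM at day 13 (1176 to 1216) and 1121 CPM at day 14 (1096 to 1146). Collagen barcodes held 39.9, 10.0, 358 and 85.8 CPM in the same order. Globin barcodes held 208 CPM (18 UMIs) and 85.1 CPM (16 UMIs) in the day 12 libraries, and 309 and 217 CPM in the nuclei. GATA3 was thus below its epithelial level in both kinds of barcode of each library, but not near 0 in most.

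GATA2, the related factor of blood precursors and vessels, stood at 23.5 CPM in plucked feathers at day 12 (22.1 to 25.0), 5.03 CPM in feathers in skin (4.14 to 6.05), 74.4 CPM at day 13 (69.5 to 79.5) and 24.0 CPM at day 14 (20.5 to 27.9). Its thinned shares of 1.62%, 0.342%, 6.76% and 2.20% have to be read against 1.81%, 1.86%, 2.22% and 6.61% of collagen barcodes, thinned to the same depth. The share in feathers in skin thus lay under that of collagen barcodes, with exact intervals apart (0.138% to 0.704% against 1.22% to 2.72%). At day 14 it was lower too, but the intervals overlapped (1.55% to 3.04% against 2.90% to 12.6%). No order is given for plucked feathers at days 12 and 13. Their collagen shares came from 5 of 277 barcodes (0.589% to 4.16%) and from 1 of 45. Collagen barcodes may hold GATA2 of their own, which was not tested. In feathers in skin 6 of 1399 had at least 3 UMIs, and the level of all 1399 was 13.8 CPM, above the epithelium. In plucked feathers at day 12 collagen barcodes held 8.95 CPM (4.47 to 16.0), below the epithelium. Collagen nuclei held 47.8 CPM at day 13, from 6 UMIs, and 72.8 CPM at day 14 (48.4 to 105). Plucked feathers at day 12 differed in the upper end, where 132 epithelial barcodes with at least 3 UMIs held 61.9% of the GATA2 UMIs and none of 278 collagen barcodes reached 3. At day 13, 72 of 3748 epithelial barcodes reached 3, against 12 of 5163 globin barcodes, whose GATA2 level was 124 CPM. These counts were not thinned, and the epithelial barcodes were deeper. Without globin and mitochondrial genes, median depths were 9626.5 against 4194.5 UMIs at day 12 and 2091 against 1147 at day 13. Endothelial barcodes at day 14 held 143 CPM.

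POU2F3, an octamer-binding factor of suprabasal keratinocytes in mammals, stood at 149 CPM in plucked feathers at day 12 (146 to 153), 67.8 CPM in feathers in skin (64.4 to 71.3), 283 CPM at day 13 (274 to 293) and 145 CPM at day 14 (136 to 154). In collagen barcodes of day 12 it was rare, with 4.88 and 1.04 CPM, but collagen nuclei of day 13 held 87.5 CPM, from 11 UMIs. The thinned shares were 12.3%, 5.48%, 18.6% and 13.5%, and those of the globin nuclei were 3.33% and 1.39%. Among collagen nuclei of day 13 the thinned share was 6.67%.

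FOXN1, whose loss makes mice nude, had little background. Its epithelial level was 16.7 CPM in plucked feathers at day 12 (15.5 to 17.9), 12.3 CPM in feathers in skin (10.9 to 13.9), 35.9 CPM at day 13 (32.5 to 39.5) and 35.9 CPM at day 14 (31.6 to 40.6). Collagen barcodes held 0, 1, 0 and 1 UMIs of FOXN1 in the 4 libraries. The epithelial UMIs were spread thinly, since 20 of 4428 epithelial barcodes in plucked feathers at day 12 had 3 or more.

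**Figure D1:**
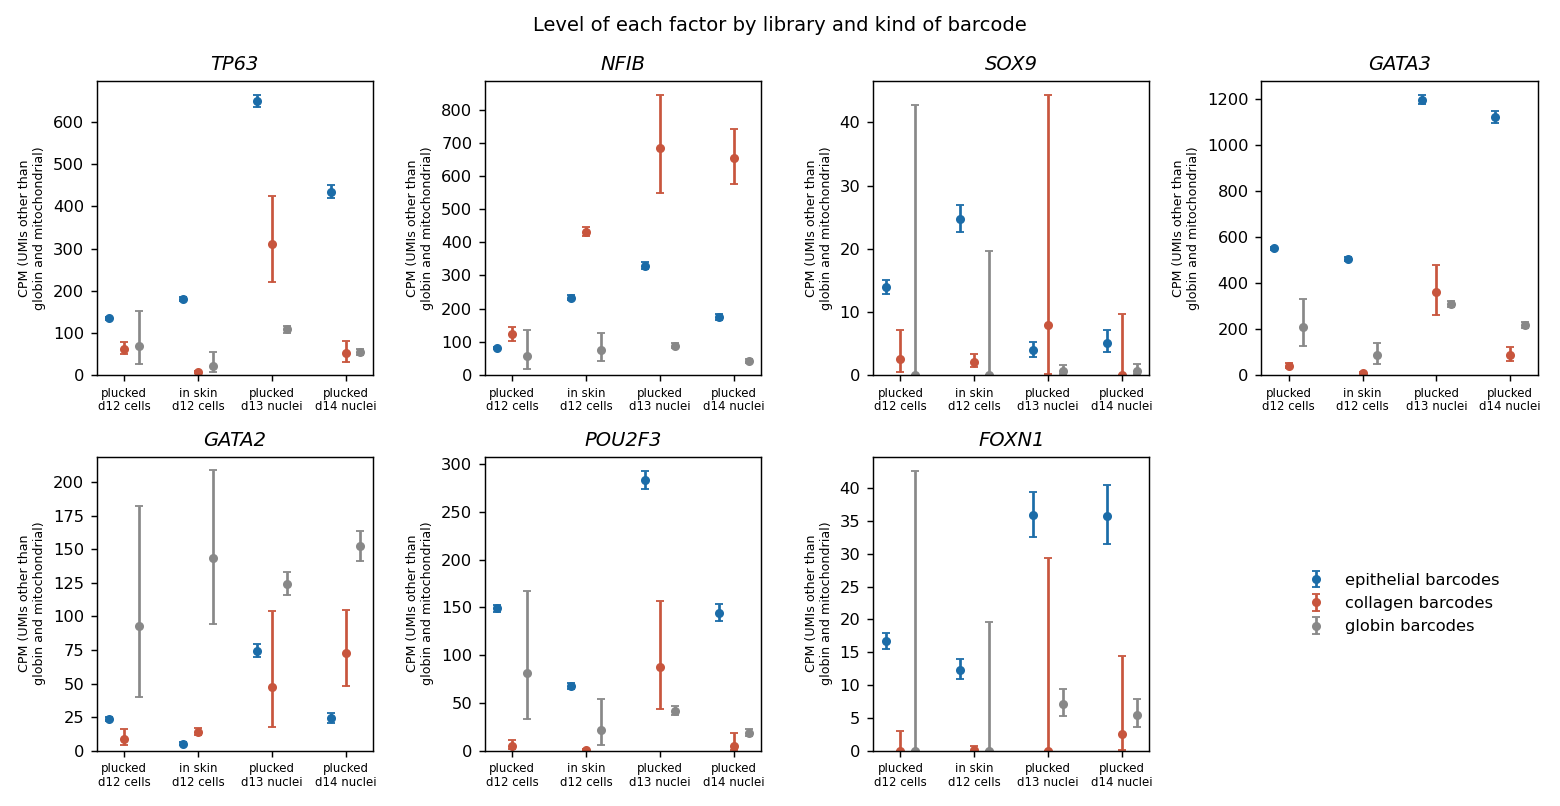
Level of each of the 7 factors in CPM (linear axes from 0, own scale per panel) in the 4 libraries, for epithelial, collagen and globin barcodes. Points are levels from summed UMIs and bars are 95% Poisson intervals of 1 library each. NFIB is higher in collagen than in epithelial barcodes in each library, FOXN1 has 0 or 1 UMIs in collagen barcodes, and GATA2 is high in globin barcodes.

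Plucked feathers were set against feathers in skin to compare the feather with the feather plus its surrounding skin at one age and preparation. Log2 ratios used a pseudocount of 10 CPM, which understates low genes, and a gene was counted only if the mean of both groups reached 20 CPM. Among the 4 factors that did, POU2F3 was past 2-fold higher in plucked feathers and NFIB past 2-fold lower. Over all 5413 genes tested, 12.5% were past 2-fold higher and 1.87% lower, and the median gene had a log2 ratio of 0.19.

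NFIB differed most, with a log2 ratio of -1.43 (-1.51 to -1.35), or -1.62 relative to the median gene. It was past 2-fold lower in plucked feathers under each of its 14 alternatives, from -1.80 to -1.10, though setting no minimum CPM cannot change a ratio. Within single states it was not past 2-fold. Among barcodes with at least 3 SHH UMIs the ratio was -0.48 (-0.69 to -0.27). With at least 2 TOP2A UMIs it was -0.62 (-0.73 to -0.51). With at least 2 UMIs of the feather keratin gene F-KER it was 0.30, from 1 UMI in feathers in skin. Barcodes of none of these states held 44.0 against 178 CPM. NFIB lies on chromosome Z in the RefSeq table of assembly GRCg7b, and male birds carry a pair of Z chromosomes. Of 218 Z-linked genes tested, 12.4% were past 2-fold lower in plucked feathers, against 1.23% of 4569 genes matched to other chromosomes. The median log2 ratios of these 2 sets were -0.08 and 0.20. At or below the ratio of NFIB lay 7 Z-linked genes, NFIB among them, and 7 genes of the other chromosomes. The sex of the embryos and the tissue cannot be told apart in this pair of libraries.

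POU2F3 had a log2 ratio of 1.03 (0.94 to 1.13), but 0.85 relative to the median gene, 0.67 with TMM scaling (a trimmed mean of the gene ratios) and 0.99 under a stricter epithelial rule, so its place past 2-fold depends on the scaling. GATA2 had a ratio of 1.16 (1.00 to 1.31) at levels too low to be counted, or 0.97 relative to the median gene. TP63 was at -0.39 (-0.47 to -0.32) and SOX9 at -0.54 (-0.69 to -0.38). The ratios of GATA3, 0.12, and FOXN1, 0.26, turned to -0.24 and -0.10 with TMM scaling, so no direction is given for them.

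Of the 59 other listed factors of epidermis and appendages found in the files, 30 passed the minimum, 5 of them past 2-fold higher in plucked feathers and 1 lower. Among 12 further basal and stratification factors that passed, TRPS1 (81.5 against 13.4 CPM) and TFAP2C (80.1 against 19.6 CPM) were higher. Among 14 further differentiation factors, CASZ1 (117 against 22.9 CPM), ZNF750 (236 against 103 CPM) and the nuclear receptor RORA (132 against 58.2 CPM) were higher, and the homeobox gene BARX2 was lower (68.4 against 180 CPM). None of 4 placode and appendage factors was past 2-fold. The median log2 ratios of the 3 lists were -0.10, 0.73 and 0.20, beside 0.19 for all genes.

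Day 14 was set against day 13 to describe the change with age within nuclei. All 6 factors that passed the minimum had a lower level at day 14 or an equal one, and GATA2 alone was past 2-fold lower, in a comparison where 3.38% of 6636 genes were past 2-fold lower and 1.69% higher. The median gene stood at -0.29, so the nuclei of day 14 were lower for most genes on this scale. GATA2 had a log2 ratio of -1.31 (-1.55 to -1.07), or -1.03 relative to the median gene and -0.92 with TMM scaling. Its thinned share at day 14 was under that of collagen nuclei, as given above. POU2F3 followed at -0.92 (-1.06 to -0.79), NFIB at -0.88 (-1.0 to -0.76) and TP63 at -0.57 (-0.65 to -0.49). Relative to the median gene these were -0.64, -0.59 and -0.29. GATA3 stood at -0.09 (-0.15 to -0.04) and FOXN1 at -0.00 (-0.25 to 0.25), which relative to the median gene turned to 0.19 and 0.28. SOX9 was too low to be counted.

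The make-up of the epithelial nuclei moved with these ratios. Nuclei with at least 2 UMIs of F-KER, a feather keratin gene, were 27.1% of epithelial nuclei at day 13 (exact 95% interval 25.7 to 28.6) and 62.8% at day 14 (60.6 to 65.1). Those with at least 3 SHH UMIs were 6.91% (6.12 to 7.77) and 2.72% (2.02 to 3.58), and those with at least 2 UMIs of TOP2A, a topoisomerase of dividing cells, 4.56% (3.92 to 5.28) and 2.17% (1.55 to 2.95). F-KER was also found in globin nuclei, in a larger share of them at day 14 than at day 13. Its threshold of 2 UMIs thus lies near the background, and its rise need not be one of epithelial make-up alone. Leaving out the nuclei of all 3 states kept 2468 nuclei of day 13 and 639 of day 14. The ratio of TP63 was then 0.11, that of NFIB -0.17, that of POU2F3 -0.37 and that of GATA2 -0.87. In that setting none of the 7 factors was past 2-fold. The opposite held when nuclei with over 5% globin UMIs were left out, which kept 568 nuclei of day 13 and 693 of day 14: NFIB then stood at -1.64, GATA2 at -1.61 and POU2F3 at -1.41.

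Within nuclei of at least 2 F-KER UMIs, the age ratio of GATA2 was -1.31 (60.1 CPM at day 13, 18.2 CPM at day 14). The ratio was -1.29 for NFIB (323 and 126 CPM), -1.16 for POU2F3 (262 and 112 CPM) and -0.77 for TP63 (595 and 345 CPM). The median gene stood at -0.31 in these nuclei. Within SHH nuclei, POU2F3 stood at 322 CPM at day 13 and 65.2 CPM at day 14 (18 UMIs). GATA2 had a ratio of -2.10 in SHH nuclei, from 3 UMIs at day 14, beside -0.21 for the median gene. Nuclei of none of the 3 states held TP63 at 598 CPM at day 13 and 646 CPM at day 14, and NFIB at 278 and 245 CPM. Among the 171 and 39 nuclei of high TOP2A, NFIB stood at 668 CPM at day 13 and 832 CPM at day 14 (ratio 0.31, 0.04 to 0.58). There TP63 stood at 956 and 588 CPM (-0.69, -0.99 to -0.40), and the ratios of GATA3 and POU2F3 were -0.62 and -0.59. That of GATA2 was -2.30, from 2 UMIs at day 14, and the median gene stood at -0.17.

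Of the other listed factors, 34 passed the minimum between the ages, none of them past 2-fold higher at day 14 and 2 lower. BCL11B, a zinc finger factor of skin and T cells, stood at 1391 CPM at day 13 and 546 CPM at day 14, and LEF1, a mediator of Wnt signals, at 213 and 98.8 CPM. The medians of the basal, differentiation and placode lists were -0.37, -0.35 and -0.43.

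**Figure D2:**
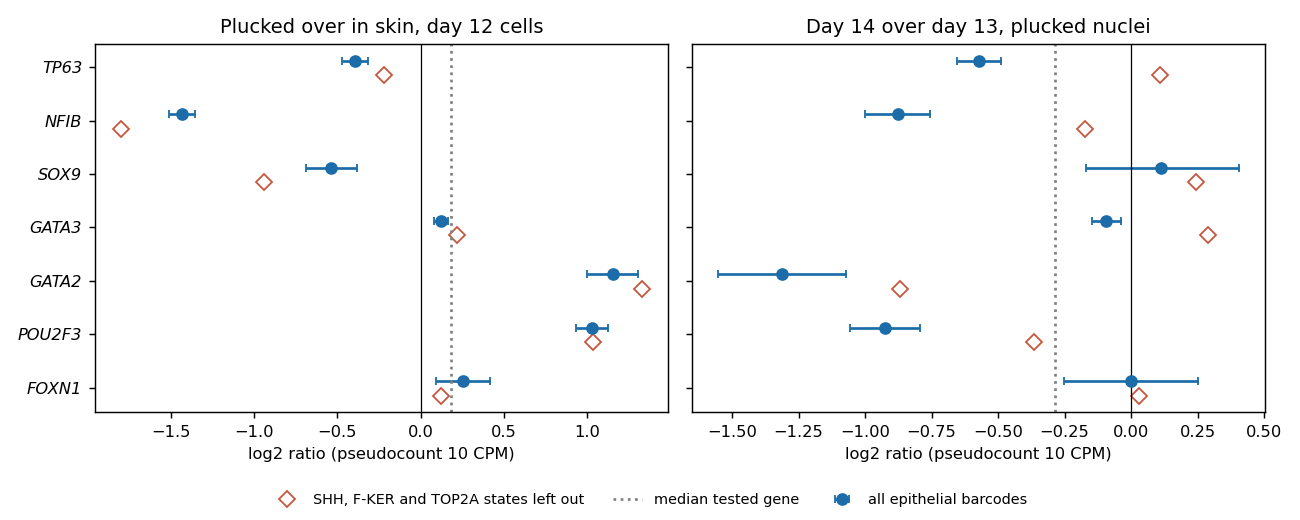
Log2 ratios of the 7 factors between plucked feathers and feathers in skin at day 12 (left) and between day 14 and day 13 (right), in all epithelial barcodes (filled, bars from the outer ends of 95% Poisson intervals) and with SHH, F-KER and TOP2A states left out (open). The dotted line is the median tested gene. Leaving out the states moves NFIB away from 0 on the left, to -1.80, and towards 0 on the right, to -0.17.

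Cycling epithelial barcodes, with at least 2 TOP2A UMIs, were set against the other epithelial barcodes of their own library. There were 939 in plucked feathers of day 12, 723 in the in-skin library and 171 and 39 in the nuclei of days 13 and 14. Of the 28 ratios of factor and library, only those that passed the minimum were counted, for 5, 5, 6 and 5 factors in the 4 libraries. Among these 3 were past 2-fold higher, all of NFIB, and none was lower. Over all tested genes 6.19%, 4.17%, 1.78% and 8.32% were past 2-fold higher in these libraries and 4.93%, 3.78%, 4.03% and 3.89% lower. Cycling barcodes were deeper than the others in each library, as in feathers in skin with median depths of 15539 and 9692 UMIs. At day 13 these were 8059 and 2858 UMIs, and globin genes took 7.08% of the UMIs of cycling nuclei against 24.7% in the others.

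NFIB stood at 197 CPM in cycling and 41.0 CPM in other epithelial barcodes of plucked feathers at day 12, at 309 and 169 CPM in feathers in skin, at 668 and 276 CPM at day 13 and at 832 and 148 CPM at day 14. It was thus higher in cycling barcodes in all 4 libraries, with log2 ratios of 2.02 (1.91 to 2.14), 0.84 (0.73 to 0.94), 1.25 (1.11 to 1.38) and 2.42 (2.15 to 2.69). With barcodes of high SHH or F-KER left out, these were 1.98, 0.85, 1.24 and 2.63. Without nuclei of over 5% globin, the day 13 ratio was 0.64. In the deeper part of each library (at or above its median depth) the 4 ratios were 2.41, 1.04, 1.22 and 2.79, all higher in cycling barcodes. A sum of 8 fibroblast markers was also higher in cycling barcodes, at 259 against 86.9 CPM in plucked feathers of day 12. It was 411 against 289 CPM in feathers in skin and 538 against 249 CPM at day 14. At day 13 it was lower, 657 against 836 CPM. Any link to NFIB, which collagen barcodes also held, was not tested.

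TP63 was higher in cycling barcodes of all 4 libraries too, by less than 2-fold, with log2 ratios of 0.46, 0.34, 0.66 and 0.45. FOXN1 was lower in all 4, at -0.59, -0.52, -0.30 and -0.75, but the bounds of both nuclear ratios allowed either direction. The FOXN1 ratio turned to 0.97 at day 14 with barcodes thinned to 1000 UMIs, where 5 FOXN1 UMIs lay in cycling nuclei before thinning. GATA3 lay between -0.44 and 0.11 and POU2F3 between -0.34 and 0.69. SOX9 stood at 21.6 CPM in cycling and 11.4 CPM in other barcodes of plucked feathers, but at 19.1 and 29.4 CPM in feathers in skin.

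Other listed factors past 2-fold in both day 12 libraries included SOX21 and GRHL3, both lower in cycling barcodes. GRHL3, which drives barrier formation in mice, stood at 89.4 against 205 CPM in plucked feathers and 43.9 against 132 CPM in feathers in skin. Past 2-fold in both nuclear libraries were NFIA, a relative of NFIB, with BNC2, BCL11B and GLI3, all higher. NFIA stood at 1094 against 508 CPM at day 13 and 1190 against 256 CPM at day 14. Of the further basal factors, 3 of 12 and 0 of 10 were past 2-fold higher in the day 12 libraries and 4 of 15 and 6 of 15 in the nuclei. In the day 12 libraries 1 of 12 and 1 of 10 were past 2-fold lower, and in the nuclei none of 15 at either age. Differentiation factors held no such gene in any library, with 4 of 14, 3 of 14, 0 of 15 and 1 of 16 past 2-fold lower.

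Barcodes with at least 2 F-KER UMIs stood for keratin-bearing epithelium. There were 251 in plucked feathers at day 12 but 13 in feathers in skin, so the in-skin values rest on few UMIs. In nuclei there were 1016 at day 13 and 1131 at day 14, of which 61 and 21 were globin barcodes as well. But F-KER was also found in 24.0% and 47.6% of globin nuclei, so a threshold of 2 UMIs in nuclei lies near the background. Values at 10 or more F-KER UMIs, met by 240 and 508 nuclei, are therefore given beside it. Of the 28 ratios, those of 6, 5, 6 and 6 factors passed the minimum in the 4 libraries, and among these 5 were past 2-fold lower and 1 higher. Over all tested genes 5.60%, 13.1%, 0.421% and 2.34% were past 2-fold lower in the 4 libraries and 3.80%, 7.44%, 1.39% and 4.0% higher. At 10 or more UMIs, 11 ratios were past 2-fold lower, with 2 barcodes meeting that threshold in feathers in skin. Neither the share of all tested genes past 2-fold nor the median gene is given at that threshold. The count and the ratios at 10 UMIs therefore have no scale beside them.

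NFIB stood at 8.33 CPM in keratin-bearing barcodes of plucked feathers, from 33 UMIs, against 87.0 CPM in the rest (log2 ratio -2.40, -2.67 to -2.12). In feathers in skin it had 1 UMI in the 13 barcodes, or 4.87 CPM, against 235 CPM. At day 13 it stood at 323 against 333 CPM, with overlapping intervals, at 2 UMIs of F-KER, but its ratio was -1.13 at 10 UMIs. At day 14 it stood at 126 against 297 CPM, a ratio of -1.17 (-1.39 to -0.95). That ratio was -0.76 relative to the median gene, which itself lay at -0.41, and -2.25 at 10 UMIs.

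TP63 followed the same order. It stood at 34.6 against 144 CPM in plucked feathers at day 12 (ratio -1.79, -2.02 to -1.57), and at 29.2 against 181 CPM in feathers in skin, from 6 UMIs. In the nuclei it stood at 595 against 679 CPM at day 13 and 345 against 657 CPM at day 14, ratios of -0.19 and -0.91. Relative to the median gene these were -0.04 and -0.50, and that of day 13 turned to 0.03 over all UMIs. At 10 or more F-KER UMIs these were -0.86 and -1.94. SOX9 had 4 UMIs in the keratin-bearing barcodes of plucked feathers and 0 UMIs in those of feathers in skin, which allows up to 14.6 CPM.

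POU2F3 and FOXN1 were the factors with more in keratin-bearing cells at day 12. POU2F3 stood at 267 against 138 CPM in plucked feathers (ratio 0.91, 0.79 to 1.03), and at 161 against 66.9 CPM in feathers in skin (1.15, 0.58 to 1.68). FOXN1 stood at 32.6 against 15.1 CPM in plucked feathers (0.76, 0.50 to 1.02), and at 29.2 against 12.2 CPM in feathers in skin, from 6 UMIs. With 10 or more F-KER UMIs, met there by 2 barcodes, the in-skin ratio of POU2F3 was 0.55. That of FOXN1 was -1.16, a value set by the pseudocount, since those barcodes held no FOXN1 UMI. In nuclei POU2F3 stood at -0.16 at day 13 and -0.96 at day 14, or -0.76 and -1.89 at 10 or more UMIs. Relative to the median gene these 2 ratios were -0.02 and -0.55, and that of day 13 turned to 0.05 over all UMIs, so no direction is given for day 13 at 2 UMIs. FOXN1 stood at 0.37 and 0.12 in the nuclei of days 13 and 14, or 0.52 and 0.53 relative to the median gene. At 10 or more F-KER UMIs it stood at 0.02 and -0.51, without that scaling. GATA3 was lower in keratin-bearing barcodes of each library, at -0.73, -0.16, -0.27 and -0.63, and relative to the median gene at -0.63, -0.04, -0.12 and -0.22. In feathers in skin it turned to 0.12 after thinning. At 10 or more F-KER UMIs the GATA3 ratios were -0.98, -1.03, -0.71 and -1.51, with 2 barcodes behind the in-skin value. GATA2 stood at -0.23, 0.40, -0.39 and -0.77, from 2 UMIs in feathers in skin, and at -0.13, 0.51, -0.24 and -0.36 relative to the median gene. At 10 or more F-KER UMIs it was -1.61 in plucked feathers at day 12, -0.59 in feathers in skin and -1.05 at day 13.

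In both day 12 libraries TCF7L2, BNC2, TFAP2A, BARX2, LEF1 and GLI2 were past 2-fold lower in keratin-bearing barcodes, and RORA past 2-fold higher. In feathers in skin LEF1 and GLI2 had 0 UMIs and BNC2 3 UMIs in the 13 barcodes. RORA stood at 357 against 110 CPM in plucked feathers and 307 against 55.9 CPM in feathers in skin. BARX2 stood at 1.51 against 74.9 CPM and 19.5 against 182 CPM. No other listed factor was past 2-fold in the same direction in both nuclear libraries at 2 UMIs. The 4 placode and appendage factors that passed the minimum, LEF1 and GLI2 among them, had medians of -0.66 and -1.13 at day 12, with 2 of 4 lower in both libraries and 1 of 4 higher in feathers in skin. The medians of the basal list were -0.57 and -0.87, with 4 of 10 and 4 of 8 past 2-fold lower and 2 of 10 and 1 of 8 higher. Those of the differentiation list were -0.10 and 0.42, beside -0.10 and -0.11 for all genes.

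**Figure D3:**
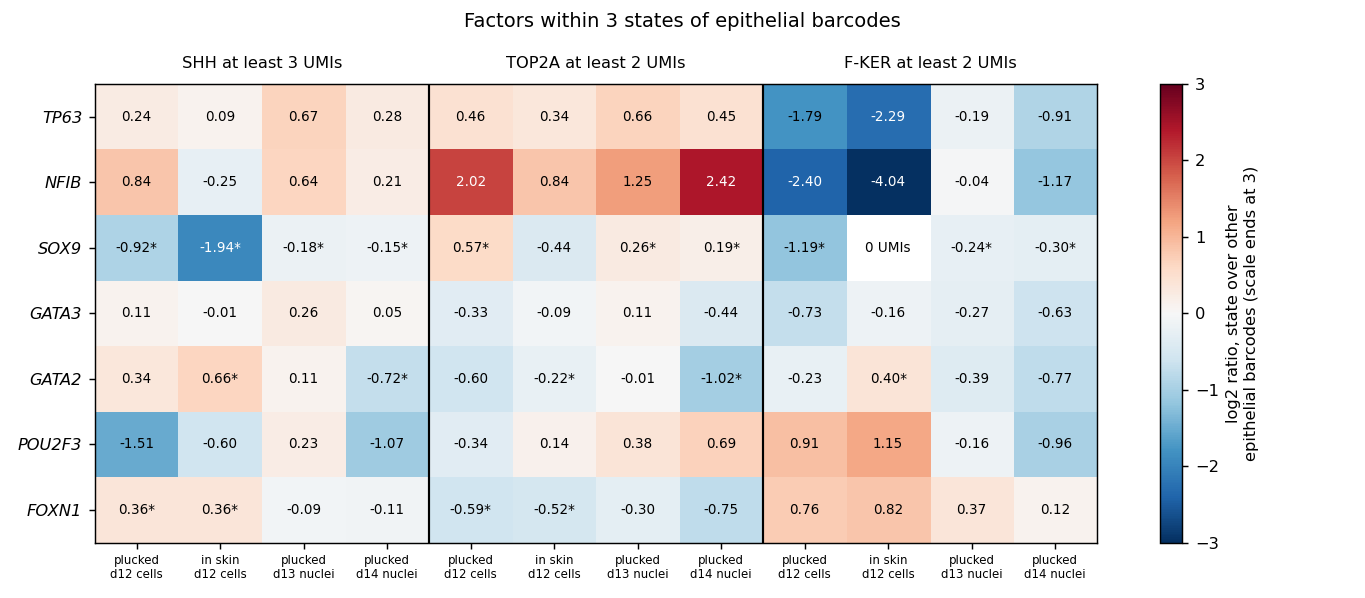
Log2 ratios (pseudocount 10 CPM) of each factor in barcodes of 3 states over the other epithelial barcodes of the same library, from blue (lower) to red (higher), with white cells near 0 and colours at their end from a size of 3. An asterisk marks a mean of both groups under 20 CPM, and a cell with no UMI in the state carries no ratio. NFIB is higher in all 4 TOP2A columns, and NFIB and TP63 are lowest in the F-KER columns of day 12.

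Barcodes with at least 3 SHH UMIs, the signalling part of the epithelium, numbered 359 and 295 in the day 12 libraries, 259 at day 13 and 49 at day 14. In nuclei of day 13 this state lies near the background, since SHH stood at 123 CPM in globin nuclei and 127 CPM in collagen nuclei, against 215 CPM in the epithelium. The SHH nuclei of day 13 were also deeper, with a median of 7042 UMIs against 2815 in the rest. At day 14 SHH stood at 25.5 CPM in globin nuclei and 69.7 CPM in the epithelium. Many SHH barcodes were cycling. At day 12, 48.5% of them in plucked feathers and 53.6% of those from skin also reached the TOP2A threshold, against 21.2% and 34.5% of all epithelial barcodes. Of the 28 ratios, those of 5, 4, 6 and 5 factors passed the minimum in the 4 libraries. Among these 2 were past 2-fold lower, both of POU2F3, and none was higher. Over all tested genes 4.73%, 3.02%, 4.17% and 3.13% were past 2-fold lower and 5.99%, 2.63%, 1.18% and 4.12% higher.

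POU2F3 stood at 49.1 CPM in SHH barcodes and 158 CPM in the rest of plucked feathers at day 12, a ratio of -1.51 (-1.72 to -1.30). In feathers in skin it stood at 44.6 and 73.1 CPM (-0.60, -0.85 to -0.36), and among barcodes of low TOP2A alone the ratios were -1.53 and -0.99. At day 13 the level was 322 against 274 CPM, a ratio of 0.23 (0.07 to 0.38). At day 14 it was 65.2 against 148 CPM, from 18 UMIs (-1.07, -1.78 to -0.40), and -0.65 with marked doublets kept.

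SOX9 was almost missing from SHH barcodes of feathers in skin, with 2 UMIs there against 548 in the rest (0.485 and 30.2 CPM). In plucked feathers it had 12 UMIs against 612 (3.17 and 14.9 CPM). NFIB stood at 141 against 74.4 CPM in plucked feathers and at 201 against 241 CPM in feathers in skin, in opposite directions. TP63 was higher by less than 2-fold in all 4, with ratios of 0.24, 0.09, 0.67 and 0.28, and GATA3 lay between -0.01 and 0.26. The bounds of the TP63 ratio in feathers in skin and at day 14 allowed either direction. TP63 turned to -0.19 in plucked feathers at day 12 with barcodes thinned to 1000 UMIs.

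LEF1 was past 2-fold higher in SHH barcodes of each library, at 198 against 24.0 CPM in plucked feathers and 113 against 26.8 CPM in feathers in skin. BNC2 and RUNX3 were higher in both day 12 libraries, and RUNX1 in both nuclear ones. GRHL3, ZNF750, BARX2 and HES1, the last a target of Notch signals, were past 2-fold lower in both day 12 libraries. ZNF750, a differentiation factor of human keratinocytes, stood at 78.6 against 250 CPM and at 14.8 against 124 CPM. Of the further differentiation factors, 5 of 14 and 4 of 13 were past 2-fold lower at day 12, none of 15 at day 13 and 1 of 16 at day 14.

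**Figure D4:**
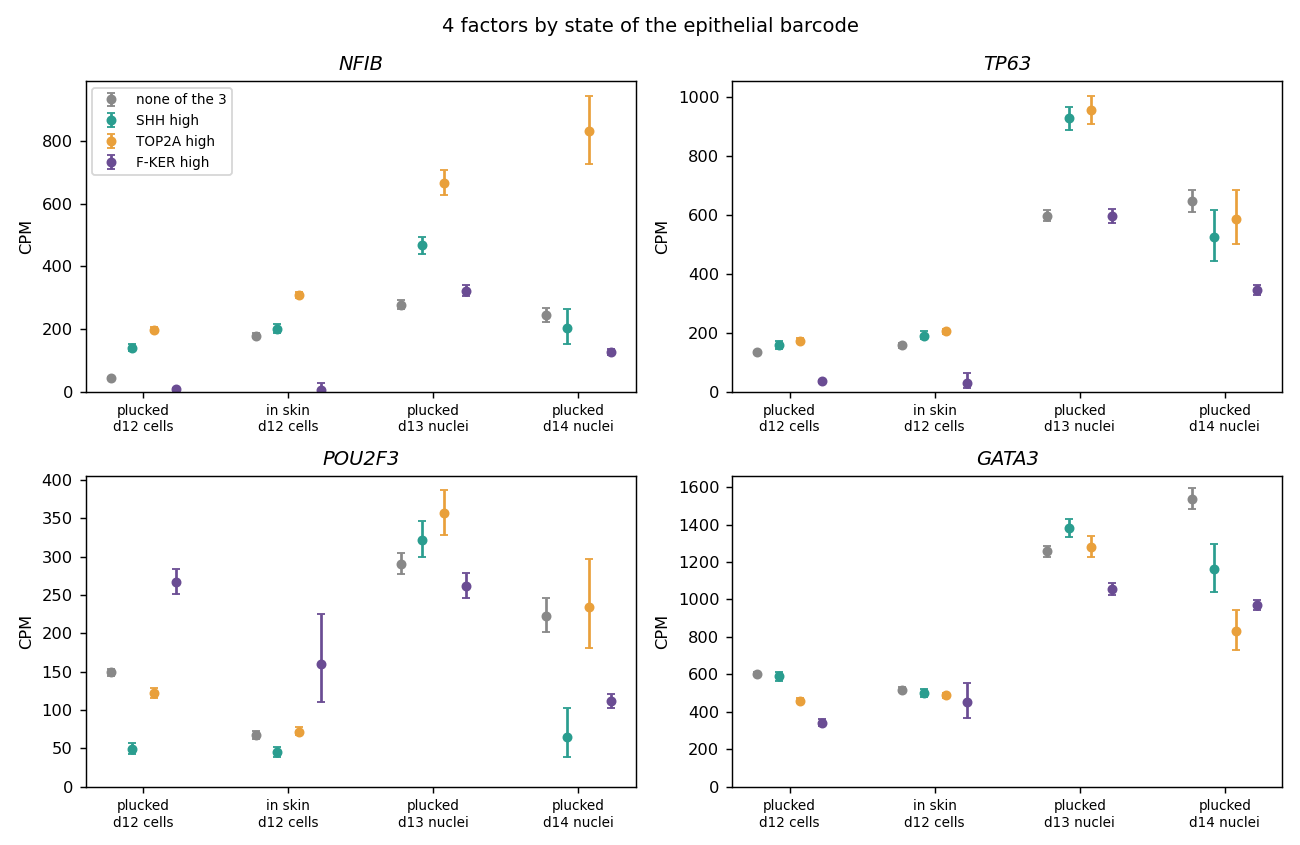
Levels in CPM (linear axes from 0) of NFIB, TP63, POU2F3 and GATA3 in epithelial barcodes of high SHH, high TOP2A, high F-KER or none of the 3, by library, with 95% Poisson intervals. A barcode can be in more than 1 high state. NFIB is highest in the TOP2A state in each library, and POU2F3 at day 12 is highest in the F-KER state and lowest in the SHH state.

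The factors were then set against each other within single barcodes, by splitting each library on whether a barcode still had a UMI of a factor after thinning and reading other genes from its full counts. POU2F3 was lower in barcodes with SOX9 in all 4 libraries. It stood at 51.2 against 151 CPM in plucked feathers at day 12, from 62 barcodes with SOX9, and at 7.46 against 69.0 CPM in feathers in skin, from 42. In the nuclei the SOX9 barcodes numbered 10 and 7 and held 3 and 0 POU2F3 UMIs. NFIB was higher in SOX9 barcodes of both day 12 libraries, at 256 against 77.4 CPM and 343 against 231 CPM. GATA2 was higher in POU2F3 barcodes of plucked feathers, at 44.7 against 20.0 CPM at day 12, 107 against 65.6 CPM at day 13 and 55.5 against 19.4 CPM at day 14. In feathers in skin GATA2 was too low to compare.

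**Figure D5:**
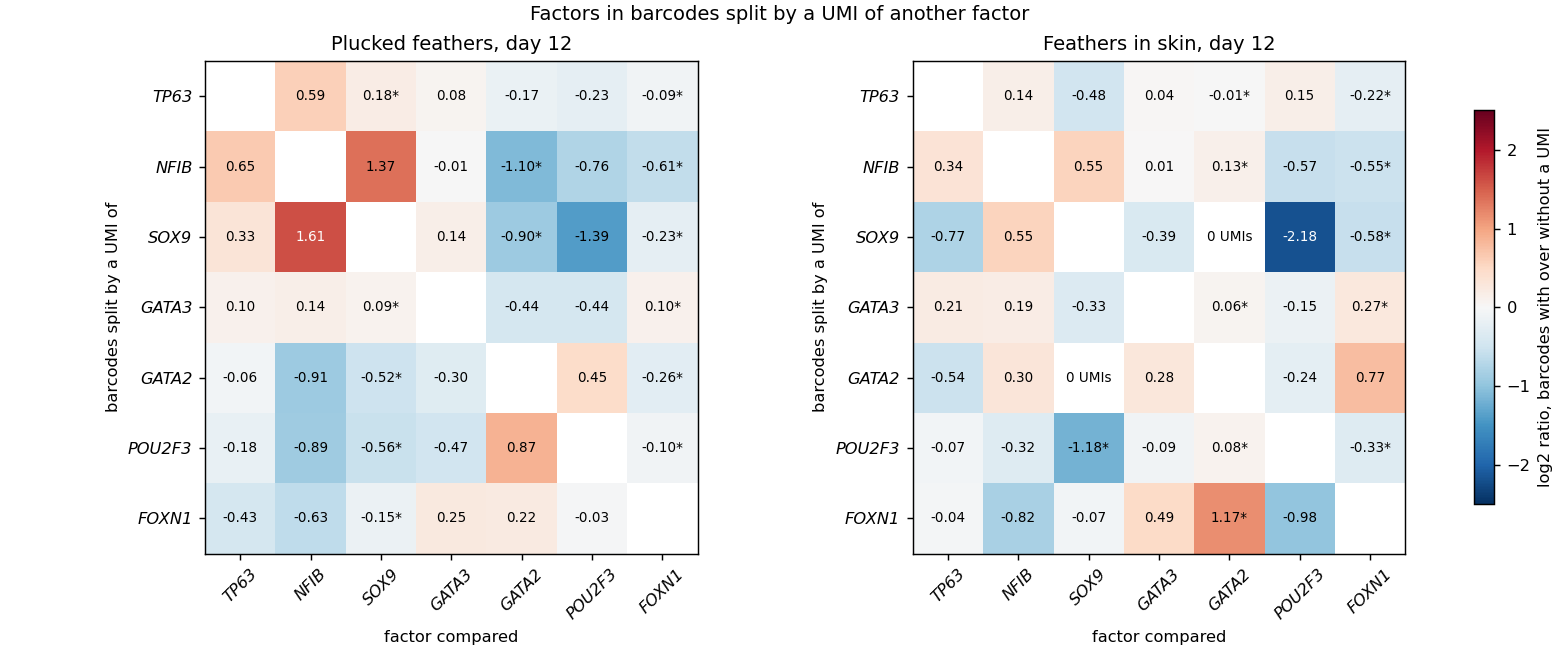
Log2 ratios of each factor (columns) in epithelial barcodes with over barcodes without a UMI of another factor (lines of the grid), for the day 12 libraries, where blue is lower and red higher. An asterisk marks a mean under 20 CPM, and cells with no UMI in the barcodes split off carry no ratio. SOX9 goes with higher NFIB and lower POU2F3 in both libraries.

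The genes most like each factor were those with the highest value of the lowest of their 4 ratios between such barcodes, a description over 4 libraries. SOX9 was nearest to PSCA, KRT18, ALCAM, KRT24 and PMP22, with lowest ratios from 2.19 to 1.54. KRT18, a keratin of simple epithelia, stood at 392 against 59.9 CPM in plucked feathers at day 12, 580 against 121 CPM in feathers in skin, 815 against 50.7 CPM at day 13 and 970 against 36.8 CPM at day 14. For scale, 1.39% and 2.28% of tested genes were past 2-fold higher in SOX9 barcodes at day 12, but 17.0% and 28.6% in the few SOX9 nuclei.

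NFIB was nearest to CYP1B1, BARX2, ADAMTSL1, TFAP2B and CHL1, with lowest ratios from 1.49 to 1.02. CYP1B1, a cytochrome P450, stood at 165 against 20.5 CPM, 205 against 52.7 CPM, 41.6 against 8.41 CPM and 42.1 against 3.34 CPM in NFIB barcodes of the 4 libraries. COL17A1, the collagen that anchors basal keratinocytes, was higher with NFIB as well, by ratios of 2.44, 1.30, 0.93 and 1.17. DCN, a fibroblast marker, was higher too, by 2.48, 1.39, 0.92 and 2.35. NFIB barcodes thus held more of a basal and of a fibroblast marker alike. F-KER was lower with NFIB in the nuclei, at 434 against 1078 CPM and 2683 against 6627 CPM, or ratios of -1.29 and -1.30. This was not particular to NFIB. F-KER was also lower with GATA3, by -1.35 and -1.38, and with POU2F3, by -1.39 and -0.91. With FOXN1 it stood at 0.17 and -0.64.

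TP63 was nearest to COL17A1, RBBP8, JAG2 and KRT13, with weaker lowest ratios from 0.67 to 0.39. COL17A1 stood at 67.4 against 38.6 CPM in plucked feathers, 137 against 80.3 CPM in feathers in skin, 129 against 62.6 CPM at day 13 and 154 against 40.6 CPM at day 14. JAG2, a Notch ligand, reached 1131 against 624 CPM at day 13. The epithelial gene KRT5, which the choice of barcodes used, had ratios from 0.24 to 0.94.

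GATA3 was nearest to HSDL1, EPHB1, ABCA12, LY75 and the carboxypeptidase gene CPM, with lowest ratios from 0.77 to 0.50. ABCA12, the lipid transporter of the skin barrier, stood at 653 against 387 CPM in plucked feathers, 77.2 against 38.3 CPM in feathers in skin, 855 against 562 CPM at day 13 and 1305 against 659 CPM at day 14. FOXN1 was nearest to AXL, PLEKHA5, RORA, EPHB1 and B3GNT2, with lowest ratios from 0.57 to 0.51. EPHB1, an ephrin receptor, was thus near to GATA3 and to FOXN1. RORA stood at 206 against 131 CPM with FOXN1 in plucked feathers and 95.8 against 57.7 CPM in feathers in skin.

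POU2F3 was nearest to NFKBIZ, SMTN, RAB32, MGLL and CCSER1, with lowest ratios from 1.02 to 0.59. NFKBIZ, a nuclear regulator of NF-kappaB, stood at 869 against 394 CPM, 262 against 124 CPM, 533 against 227 CPM and 396 against 109 CPM in the 4 libraries. GATA2 was nearest to GCLC, ST3GAL1, AXIN2, SDC2 and SLC16A1, with lowest ratios from 0.59 to 0.50, although 7 barcodes of feathers in skin and 36 of day 14 stood behind them. AXIN2, a target of Wnt signals, stood at 113 against 67.5 CPM in plucked feathers at day 12. IL1RL1, a cytokine receptor, was also higher with GATA2 in plucked feathers at day 12, at 158 against 28.8 CPM. At day 13 it stood at 20.6 against 10.7 CPM, from 16 UMIs. It had 0 UMIs in the 7 GATA2 barcodes of feathers in skin and the 36 of day 14, too few for a comparison at its level there.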

How the data were processed

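The deposited values are raw UMI counts per gene and barcode, which the authors made with Cell Ranger 3.1.0 (day 12 cells) and 7.0.0 (nuclei), per the file headers. The submitters' processing notes name Cell Ranger 7.0.0 and GRCg6a. Whether intronic reads were counted is not given in the sources used here. Barcodes with at least 500 UMIs, 300 genes and at most 10% UMIs of 13 mitochondrial genes were kept. Scrublet (scanpy 1.11.5, expected rate 0.8% per 1000 barcodes) marked as doublets 153 barcodes of plucked feathers (day 12), 73 of the in-skin library and 2860 and 5390 nuclei (days 13 and 14), which were left out. Its calls in nuclei are uncertain.

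UMIs were summed over barcodes, leaving 7 globin and 13 mitochondrial genes out of the total, with exact Poisson and Clopper-Pearson 95% intervals. Ratios have bounds made from opposite ends of the Poisson intervals of their 2 levels. The floor of a count of 0 is 3 UMIs. Ratios were checked on simulated counts. Chromosomes came from a RefSeq table of GRCg7b, in which POU2F3 was not matched, so no coordinates are given.

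The factors, lists, thresholds and the rule for named genes were chosen with earlier results of these data known. All 7 factors are named. Other listed factors (59 of 67 found) are named if past 2-fold between libraries, or in the same direction in both day 12 or both nuclear libraries for a state. The 5 nearest genes of each factor are named. Some genes that these rules select are not reported here. IL1RL1, and COL17A1, DCN, F-KER and KRT5 in barcodes split by a factor, were added after values were seen. So were the ratios between libraries within a state and the sums of fibroblast markers in cycling barcodes. Python 3.11.15, numpy 2.4.6, scipy 1.17.1, pandas 2.3.3 and matplotlib 3.10.9 were used.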

Additional observations from a re-analysis of the deposited data

Results flagged for a closer look

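Some factors stood on opposite sides of their state's reference in libraries that share a preparation. None of these differences was tested, since each rests on 1 library per group. NFIB in SHH barcodes had a log2 ratio of 0.84 in plucked feathers at day 12 and -0.25 in feathers in skin, a difference of 1.09. POU2F3 in SHH barcodes had a ratio of 0.23 at day 13 and -1.07 at day 14, a difference of 1.30, with 18 UMIs behind the day 14 level. SOX9 in cycling barcodes had a ratio of 0.57 in plucked feathers at day 12 and -0.44 with the skin in place, a difference of 1.00. GATA3 in cycling nuclei had a ratio of 0.11 at day 13 and -0.44 at day 14, a difference of 0.56, with 39 cycling nuclei at day 14. Each of 3 of these values lay near 0 and changed sign in an alternative: the in-skin NFIB ratio was 0.09 at 5% mitochondrial UMIs, the day 13 POU2F3 ratio was -0.05 without nuclei of over 5% globin, and the day 13 GATA3 ratio was -0.11 with the other states left out.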

How the results depend on the processing

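Of 98 ratios of a factor in a comparison, 19 were past 2-fold at any level, all 19 kept their direction in every alternative run on them, and 9 stayed past 2-fold in each. The 19 include ratios with 0 to 3 UMIs in 1 group. Of 158 counts of factors compared with the main ones, 128 were within 1.5 times.

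The others were as follows. In plucked feathers over feathers in skin, the count of higher factors was 2 with no minimum CPM and 0 relative to the median gene, with TMM scaling or with the stricter epithelial rule. For day 14 over day 13, the count of lower factors was 0 with TMM scaling or the 3 states left out, 2 with the stricter rule and 3 without barcodes of over 5% globin. For SHH, the count of higher ratios was 1 over all UMIs, as the mean of barcodes' own CPM, at 5% mitochondrial UMIs or in the deeper barcodes, and 2 after thinning. The count of lower SHH ratios was 1 as the mean of barcodes' own CPM, with doublets kept, at 20% mitochondrial UMIs or after thinning. For F-KER, the count of higher ratios was 3 with a pseudocount of 1 CPM, at 5% mitochondrial UMIs or after thinning, 2 relative to the median gene, with TMM scaling or as the mean of barcodes' own CPM, and 0 in the deeper barcodes. Its count of lower ratios was 11 at the higher threshold, for which no share over all tested genes is given. For TOP2A, the count of lower ratios was 1 with a pseudocount of 1 CPM, no minimum, thinning or without barcodes of over 5% globin, and 2 with the other states left out, an alternative chosen after seeing the data. The cause of these moves was not tested.

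SOX9, GATA2 and FOXN1 rest on few UMIs, and the 13 keratin-bearing barcodes of feathers in skin and the 39 cycling and 49 SHH nuclei of day 14 give wide intervals. At 20% mitochondrial UMIs the added barcodes had no doublet call and were kept. No paired analysis was possible because each group has 1 library and no test was made.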
